A study of Mus musculus with 6 samples.

Results

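Retinoid handling was described through 9 genes that act in retinol transport, retinoid storage and retinoic acid synthesis or clearance: Lrat, Rbp4, Crabp1, Crabp2, Aldh1a1, Aldh1a2, Rdh10, Cyp26b1 and Stra6. They were chosen by gene symbol, and all 9 were among the 20677 genes for which a probe set named no other gene. They were covered by 11 probe sets of 38011, since Lrat and Rdh10 had 2 each. RNA from E12.5 livers of the mouse strain C57Bl6, genotype wild type, was hybridised to 6 arrays with 1 array per group, in a series on the isolation of hepatic stellate cells that carry integrin alpha 8. The groups were unsorted liver cells, cells sorted for the adhesion molecule ALCAM (ALCAM+), and 4 sorts of ALCAM+ cells: with podoplanin (PDPN+), without it (PDPN-), with integrin alpha 8 (ITGA8+) and without it (ITGA8-). No group carried a transgene or a treatment, and how many embryos went into each array is not given in the sources used here.

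Retinol, vitamin A, travels in plasma bound to RBP4, which hepatocytes secrete, and enters some cells through the receptor STRA6. LRAT esterifies it for storage, and in the liver this storage is the hallmark of hepatic stellate cells. Retinol dehydrogenases such as RDH10 oxidise retinol to retinal, the ALDH1A enzymes oxidise retinal to retinoic acid, CRABP1 and CRABP2 bind retinoic acid in the cytosol, and CYP26 enzymes degrade it. Retinoic acid acts through nuclear receptors of the RAR and RXR families. In the embryo Aldh1a2 is expressed in mesothelium and lateral mesoderm, and the embryonic mesothelium of the liver is known as a source of stellate cells.

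Aldh1a2, the main retinoic acid synthase gene of the early embryo, was well above background in PDPN+, ITGA8+ and ITGA8- cells and near background in PDPN- cells, at an intensity of 42 against 2082 to 2509. Lrat ran the other way in the PDPN split, with 231 in PDPN- and 9 in PDPN+ cells, and was at 193 in ITGA8+ and 36 in ITGA8- cells. Aldh1a1, Crabp2 and Stra6 were also lowest in PDPN- cells. Within the ITGA8 split, Lrat (4.02-fold higher in ITGA8+) and Stra6 (4.47-fold lower) were past 2-fold, while Aldh1a2 was within 1.06-fold. With 1 array per group none of these differences has a replicate check, so no test was made.

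Intensities are on a linear scale, and differences are in log2(intensity + 16). The floor for calling a gene was an intensity of 109, the median of all values. The liver and ALCAM+ arrays had medians of 42 and 66 and the 4 fraction arrays 123 to 200, so the 2 sets differ in scale. A level across them is read from its percentile among the probe sets of its own array. The floor of 109 is thus a stricter cut in the liver and ALCAM+ arrays than in the fraction arrays. Probe sets bind with different strength, so differences were taken between arrays and not between genes. Where levels or percentiles of several genes stand side by side or are summed, that limit applies. The number of arrays limits the precision. The sort markers went with the labels: Alcam was at 3207 in liver and 13425 in ALCAM+, Pdpn at 7746 in PDPN+ and 117 in PDPN-, and Itga8 at 4354 in ITGA8+ and 871 in ITGA8-. Each marker was also measured in the split that did not use it: ITGA8+ cells had Pdpn at 4658 and ITGA8- cells at 6176, with Itga8 at 737 in PDPN+ and 2215 in PDPN- cells. Both ITGA8 arrays thus had far more Pdpn than the PDPN- array, and PDPN- cells had more Itga8 than PDPN+ cells.

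RefSeq promoter sequences (build GRCm38.p6) were matched for 7 of the 9 genes. The 250 bases before the start are shown for the 3 genes on which the results turn: the storage gene and both synthase genes. Capitals mark matches, on either strand, to CCAAT, to GGGCGG, to TATAAA, to AGATAA as well as to TGATAA, and to hexamers that retinoic acid receptors can bind (AGGTCA with its close forms GGGTCA as well as AGTTCA as well as GGTTCA). The windows are chr3:82903975-82904224 on the minus strand for Lrat, chr9:71215539-71215788 on the plus strand for Aldh1a2, and chr19:20601718-20601967 on the plus strand for Aldh1a1, which has another start in the table.
Lrat: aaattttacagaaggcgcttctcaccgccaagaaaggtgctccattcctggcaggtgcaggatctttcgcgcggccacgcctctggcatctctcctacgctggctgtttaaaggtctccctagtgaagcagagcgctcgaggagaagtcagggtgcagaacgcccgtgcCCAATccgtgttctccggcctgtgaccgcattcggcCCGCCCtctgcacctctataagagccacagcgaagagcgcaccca
Aldh1a2: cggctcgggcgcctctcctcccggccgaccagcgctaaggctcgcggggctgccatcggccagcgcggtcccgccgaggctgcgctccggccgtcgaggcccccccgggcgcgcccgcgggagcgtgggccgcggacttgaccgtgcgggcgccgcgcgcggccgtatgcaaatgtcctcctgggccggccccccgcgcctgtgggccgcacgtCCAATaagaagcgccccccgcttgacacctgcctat
Aldh1a1: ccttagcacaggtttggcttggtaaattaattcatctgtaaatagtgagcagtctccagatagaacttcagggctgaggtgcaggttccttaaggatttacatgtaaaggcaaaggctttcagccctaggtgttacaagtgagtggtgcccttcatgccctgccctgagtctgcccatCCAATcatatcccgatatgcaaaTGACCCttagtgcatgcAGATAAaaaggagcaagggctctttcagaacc

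The synthase windows differ in base composition. That of Aldh1a2 is 77.6% G or C and holds 40 CpG dinucleotides, more than 98.7% of 32851 promoter windows, whereas that of Aldh1a1 is 46.4% G or C with 1 CpG. The Lrat window is 59.2% G or C with 18 CpG. Each of the 3 holds 1 CCAAT (33.8% of all windows hold one), at 81 bases before the start in Lrat, 36 in Aldh1a2 and 72 in Aldh1a1. The Aldh1a1 window also holds a receptor hexamer on the other strand, at 49 bases before the start (38.6% of all windows). It holds AGATAA at 32 bases (16.6%), and the Lrat window a GGGCGG on the other strand at 45 bases (32.7%). The window of the other Aldh1a1 start, not shown, holds 3 CpG and none of the marked motifs, CCAAT included. No direct repeat of the hexamers with 1, 2 or 5 bases between them was found in any of the 12 windows of the 7 genes, and such repeats are in 0.164%, 0.174% and 0.0883% of all windows. These matches describe the letters of the windows.

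**Figure D1:**
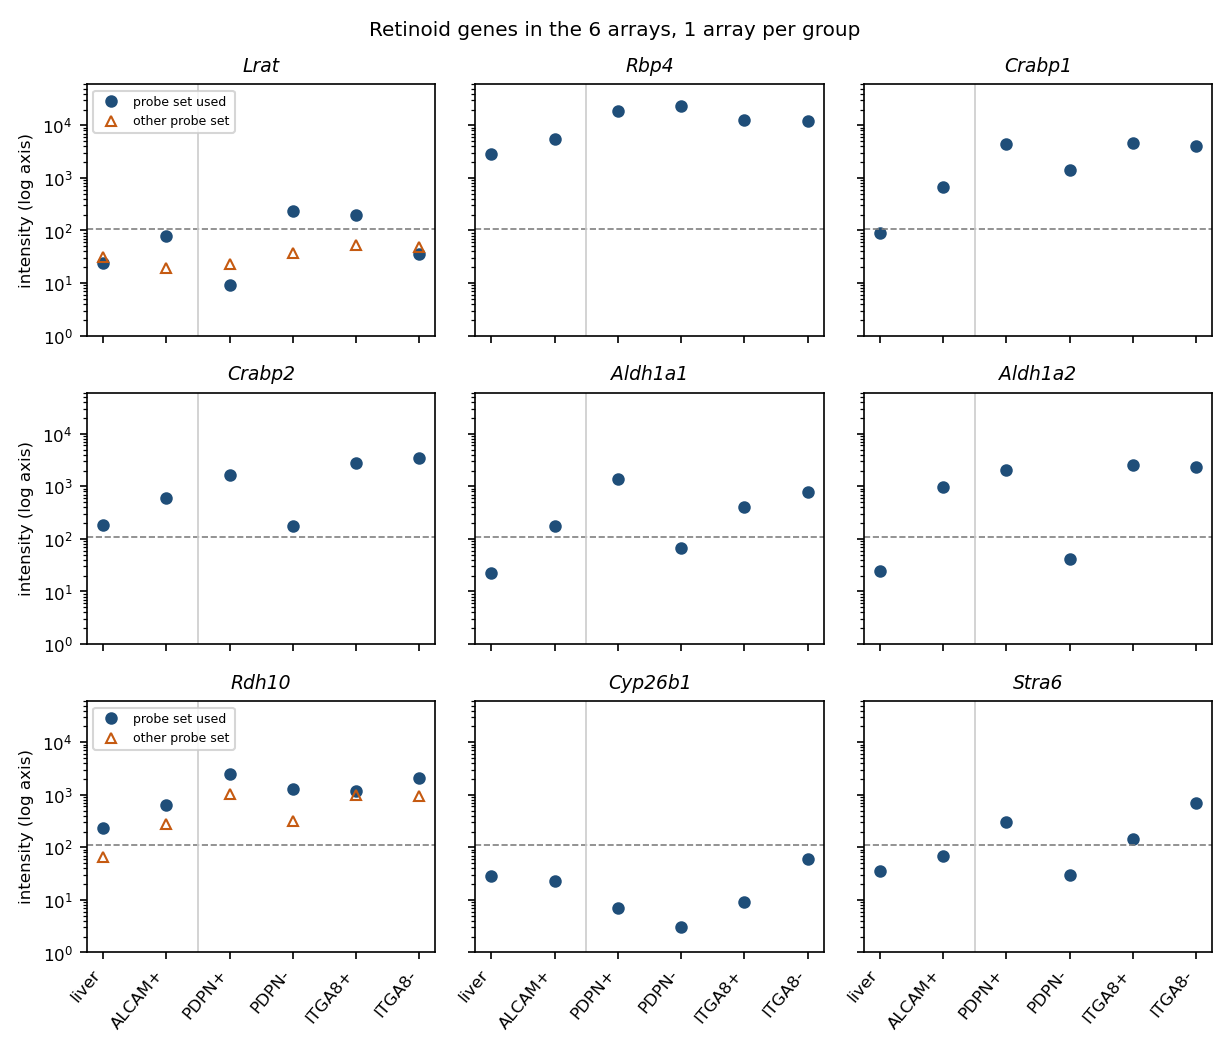
Intensity (log axis) of the 9 retinoid genes in the 6 arrays, 1 point per array; circles are the probe set used for the gene, triangles its other probe set, the dashed line the floor of 109, and the vertical line divides the arrays by scale. Aldh1a2 is at 42 in PDPN- and at 2082 or more in the other 3 fractions, Lrat is highest in PDPN- and ITGA8+, and Cyp26b1 stays below the floor in all 6 arrays.

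Among the transport genes, Rbp4 was at 2888 in liver, 5399 in ALCAM+, 18450 in PDPN+ and 23609 in PDPN-, with 12732 in ITGA8+ and 11883 in ITGA8- cells. It lay between the 98.2 and the 99.8 percentile of its array in all 6, and no pair of fractions differed by over 1.99-fold. The 9 hepatoblast markers were all above the floor in the 4 fractions, with a summed intensity of 192615 in PDPN- and 147299 in PDPN+, with 124970 in ITGA8+ and 104729 in ITGA8-, the same order of arrays as for Rbp4. Their part in the Rbp4 level was not tested.

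Stra6, the receptor gene for RBP4, was at 36 in liver, 68 in ALCAM+, 299 in PDPN+ and 30 in PDPN-, with 147 in ITGA8+ and 713 in ITGA8- cells. By percentile these were 45.1, 47.4, 53.8, 27.2, 44.6 and 65.5, so ITGA8+ ranked no higher than liver or ALCAM+. The ITGA8+ value is above the floor but below the median of its array (173). ITGA8- cells thus had the highest level, and both fractions in which Lrat passed the floor had less Stra6 than their counterparts. The difference was 2.78 in PDPN+ minus PDPN- and -2.16 in ITGA8+ minus ITGA8-, where 0.281% of 13874 genes had a lower value. The PDPN- level is below the floor, so the size of the first depends on the pseudocount: it was 3.27 with 1 and 1.95 with 64 in place of 16. That call is also lost with a floor 4 times higher, which the PDPN+ level does not reach.

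Lrat, the storage gene, was low throughout. Its stronger probe set was at 24 in liver, 77 in ALCAM+, 9 in PDPN+ and 231 in PDPN-, with 193 in ITGA8+ and 36 in ITGA8- cells. Only the PDPN- and ITGA8+ arrays passed the floor, and they differed by 1.18-fold. On the lower scale of its own array, the ALCAM+ value lay at the 49.5 percentile, near those of PDPN- (54.7) and ITGA8+ (48.7), while PDPN+ lay at 12.0 and ITGA8- at 20.8. The difference was -3.30 in PDPN+ minus PDPN-, where 0.0298% of 13428 genes had a lower value, and 2.01 in ITGA8+ minus ITGA8-, rank 47 of 13874 genes from the highest. Since the lower arrays were below the floor, these sizes depend on the pseudocount: with 1 and with 64 in its place they were -4.54 and -2.01 in the PDPN split and 2.39 and 1.36 in the ITGA8 split. The other Lrat probe set was at 19 to 52 in the 6 arrays, below the floor in all, and did not follow this order, with 37 in PDPN-, 52 in ITGA8+ and 49 in ITGA8-. Both Lrat differences therefore rest on 1 probe set; with the mean of both probe sets they were -1.87 and 1.04, and no array passed the floor.

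Rdh10, whose product makes retinal from retinol, was above the floor in all 6 arrays. Its stronger probe set read 233 in liver, 639 in ALCAM+, 2441 in PDPN+ and 1285 in PDPN-, with 1200 in ITGA8+ and 2076 in ITGA8- cells. The percentile was 76.7 in liver and 82.3 in ALCAM+, against 84.3, 76.3, 74.9 and 81.6 in the 4 fractions in that order. Liver thus ranked above PDPN- and ITGA8+ despite its lower intensity. PDPN+ and ITGA8- cells were the higher side of each split, by 1.89-fold and 1.72-fold. The weaker probe set gave 1028, 316, 994 and 968 in the 4 fractions in the same order, with a 3.14-fold difference in the PDPN split and 1.03-fold in the ITGA8 split. The lower level in PDPN- than PDPN+ cells was thus seen with both probe sets, and the ITGA8 difference with 1 of them.

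Aldh1a2 was at 25 in liver, 977 in ALCAM+, 2082 in PDPN+ and 42 in PDPN-, with 2509 in ITGA8+ and 2363 in ITGA8- cells. The 3 fractions other than PDPN- were within 1.2-fold of each other. Its percentile was 32.5 in PDPN- and 82.1 to 84.7 in those 3 fractions, against 37.3 in liver and 87.5 in ALCAM+. PDPN+ cells had 36.2-fold more than PDPN- cells (5.18 in log2, rank 61 of 13428 genes from the highest), and 4.34 to 5.60 with the other pseudocounts.

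Aldh1a1, which encodes a second retinal dehydrogenase, was at 22 in liver, 180 in ALCAM+, 1355 in PDPN+ and 66 in PDPN-, with 397 in ITGA8+ and 799 in ITGA8- cells. Its percentile was 34.4 in liver and 63.1 in ALCAM+, against 75.8, 38.8, 59.0 and 67.2 in the fractions in that order. Unlike Aldh1a2 it was graded over the fractions, with PDPN+ the highest. It was 16.7-fold higher in PDPN+ than PDPN- cells (4.06 in log2), a size that depends on the pseudocount since the PDPN- level is below the floor, with 4.34 for a pseudocount of 1 and 3.45 for 64. It was 1.97-fold lower in ITGA8+ than ITGA8- cells, just short of 2-fold (-0.98 in log2, and -1.01 with a pseudocount of 1). Its profile over the 4 fractions was closer to that of Stra6 (distance 1.43 in log2, from profiles centred on their own mean) than to that of Aldh1a2 (2.3).

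Crabp1 was at 89 in liver, 672 in ALCAM+, 4488 in PDPN+ and 1421 in PDPN-, with 4628 in ITGA8+ and 4072 in ITGA8- cells, and Crabp2 at 183, 603, 1658, 180, 2790 and 3413. Both were lowest of the fractions in PDPN- cells, Crabp1 by 3.13-fold and Crabp2 by 8.54-fold against PDPN+. The Crabp1 level in PDPN- cells was still at the 77.5 percentile, while that of Crabp2 was at the 51.6 percentile. In liver and ALCAM+ the percentiles were 61.6 and 83.0 for Crabp1, and 73.0 and 81.5 for Crabp2. Neither gene differed by over 1.22-fold in the ITGA8 split.

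Cyp26b1, which encodes a retinoic acid hydroxylase, was at 28 in liver, 23 in ALCAM+, 7 in PDPN+ and 3 in PDPN-, with 9 in ITGA8+ and 61 in ITGA8- cells. It did not reach the floor in any array and entered no comparison. The signal of its probe set cannot be told from background at these levels.

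The first sort was examined by setting ALCAM+ cells against unsorted liver cells. The median of all genes was 0.90 higher in ALCAM+ in log2 (1.87-fold), and each value below has that median subtracted. Of the 9 genes 6 were above the floor, of which 3 were 2-fold higher and 0 lower, where 15.5% of 10982 genes were higher and 11.3% lower. These were Aldh1a2 at 3.70 (rank 8 of all genes, and 2.77 to 4.28 with the other pseudocounts), Crabp1 at 1.81 and Aldh1a1 at 1.47. Crabp2 was at 0.74 and Rdh10 at 0.50. As deposited, without the shift, 5 were higher, where 45.4% of all genes were. With the floor at the median of each array, 8 of the 9 genes entered, and the same 3 were called. For Aldh1a2, Crabp1 and Aldh1a1 the percentile also differed, from 37.3 to 87.5, from 61.6 to 83.0 and from 34.4 to 63.1. That of Rbp4 stayed at 98.2 and 98.7.

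The PDPN split asks how podoplanin, a mesothelial surface protein, divides ALCAM+ cells. Of 8 genes above the floor, 5 were 2-fold higher in PDPN+ cells (Aldh1a2, Aldh1a1, Crabp2, Stra6 and Crabp1), where 19.9% of 13428 genes were higher. Lrat was 2-fold lower, where 7.89% of genes were, and Rdh10 and Rbp4 were within 2-fold. The median of the 8 was 2.21, against 0.04 for all genes.

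In the ITGA8 split, 1 of 8 genes was 2-fold higher in ITGA8+ cells (Lrat), where 5.36% of 13874 genes were. Another was 2-fold lower (Stra6), where 5.98% were. The other 6 genes were between -0.98 and 0.18, and the median of the 8 was -0.10 against 0.00 for all genes. Thus 6 of 8 retinoid genes above the floor lay within 2-fold between ITGA8+ and ITGA8- cells, and 2 of 8 between PDPN+ and PDPN- cells. The difference between those counts was not tested. Over all genes, too, fewer were past 2-fold in the ITGA8 split: 5.36% higher and 5.98% lower, against 19.9% and 7.89% in the PDPN split. The splits share no array.

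**Figure D2:**
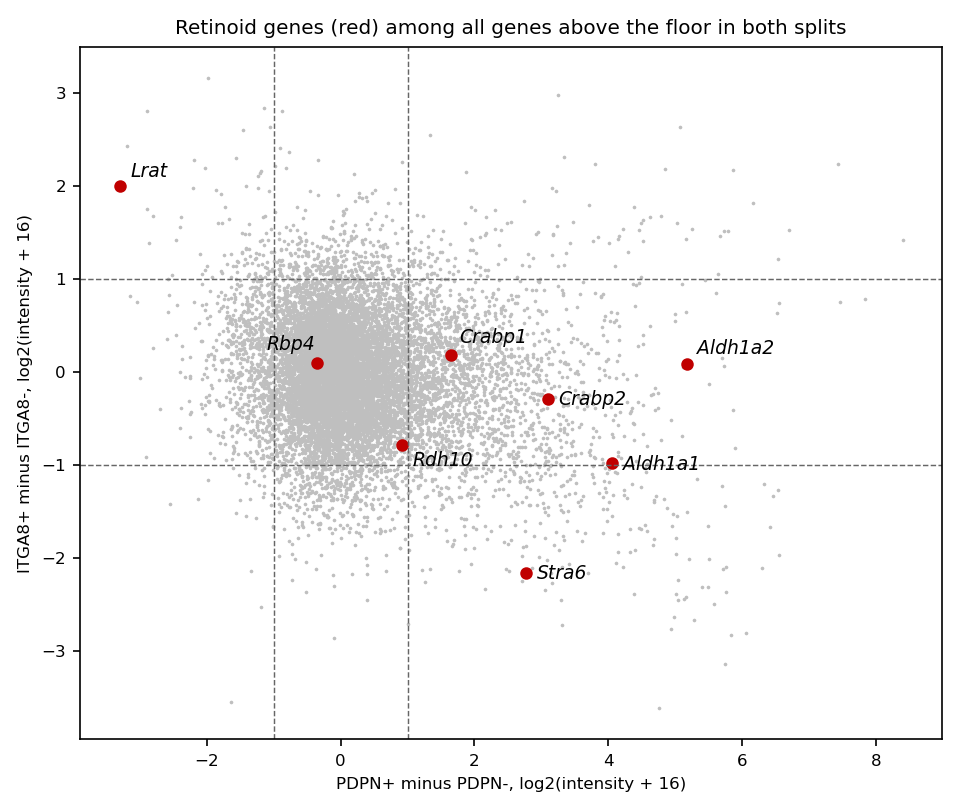
Difference in log2(intensity + 16) in the PDPN split (x axis) and the ITGA8 split (y axis) for all genes above the floor in both (grey) and 8 retinoid genes (red, named); dashed lines mark 2-fold. Lrat sits at the upper left, at -3.30 and 2.01, Stra6 and Aldh1a1 at the lower right, and Aldh1a2 far to the right at 5.18 with an ITGA8 difference of 0.09.

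ITGA8+ cells were then set against PDPN+ cells, which takes an array from each split. Of 8 genes, 1 was 2-fold higher in ITGA8+ than PDPN+ cells (Lrat at 3.06), where 16.2% of 14101 genes were. Of the rest, 2 were 2-fold lower (Aldh1a1 at -1.73 and Rdh10 at -1.01), where 14.2% of genes were. Aldh1a2 was at 0.27 and Crabp1 at 0.04. Lrat in PDPN+ was below the floor, and with the other pseudocounts its difference was 4.28 and 1.82. Pdpn was at 4658 and 7746 in these arrays. The Rdh10 call is at the threshold: its other probe set was at -0.05.

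A pair of further comparisons was added after the values were seen. ITGA8+ and PDPN- cells, the fractions with Lrat above the floor, differed by 2-fold in 5 of 8 genes, all higher in ITGA8+ cells, where 27.4% of 13797 genes were higher and 14.2% lower. These were Aldh1a2 at 5.44, Crabp2 at 3.84, Aldh1a1 at 2.33, Stra6 at 1.83 and Crabp1 at 1.69, while Lrat was at -0.24. Rdh10 was at -0.10 with its stronger probe set and at 1.61 with the other. The Stra6 call is lost with a floor 4 times higher or set at the median of each array, and the Aldh1a1 call with the former. PDPN- levels of Aldh1a2, Aldh1a1 and Stra6 were below the floor, so these sizes too depend on the pseudocount, with 4.60, 1.83 and 1.17 for 64. These arrays also differ in Pdpn, at 4658 and 117. PDPN+ and ITGA8- cells, the fractions with Lrat below the floor, differed by 2-fold in 2 of 7 genes, Stra6 at -1.21 and Crabp2 at -1.03, where 9.08% of 13906 genes were lower and 8.37% higher. The 3 fractions other than PDPN- thus had Aldh1a2 and Crabp1 at nearly the same level, and their differences past 2-fold among the fractions all involved the PDPN- array.

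The PDPN- array also stood apart in markers of other cells. Its 9 mesothelial markers summed to 1420, with 4 above the floor and Upk1b at 17, against 54731 in PDPN+, 41656 in ITGA8- and 15965 in ITGA8+. Its megakaryocyte markers summed to 175 with 0 of 8 above the floor (14754 to 34304 in the other 3 fractions), and its endothelial markers to 469 with 1 of 7 (4620 to 6428) and Pecam1 at 2. For the 7 macrophage markers the array that stood apart was PDPN+, at a sum of 22748 with C1qc at 2338 and all 7 above the floor. They summed to 417 in PDPN- with 1 above the floor, 2074 in ITGA8+ with 4 and 1474 in ITGA8- with 3, and C1qc was at 1, 5 and 16 in these arrays. Erythroid markers summed to 3567 in PDPN- and 6266 in PDPN+, with 34982 in ITGA8+ and 27346 in ITGA8-. By contrast the 9 stellate markers, Lrat not among them, were all above the floor in each fraction. They summed to 26302 in PDPN- and 20919 in PDPN+, with 37916 in ITGA8+ and 19311 in ITGA8-. Reln was the highest of them in each fraction, at 14543, 9305, 13250 and 6008 in that order, so the sums lean on it. The median percentile of the 9 was 74.7 in PDPN- and 77.9 in PDPN+, with 88 in ITGA8+ and 73.6 in ITGA8-. The PDPN arrays thus changed order between sum and percentile. The 6 smooth muscle and portal fibroblast markers summed to 4294, 6935, 12708 and 8461 in the same order. The part of any of these in the retinoid differences was not tested, and in sorted cell pools fewer cells of a type and less RNA per cell cannot be told apart.

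**Figure D3:**
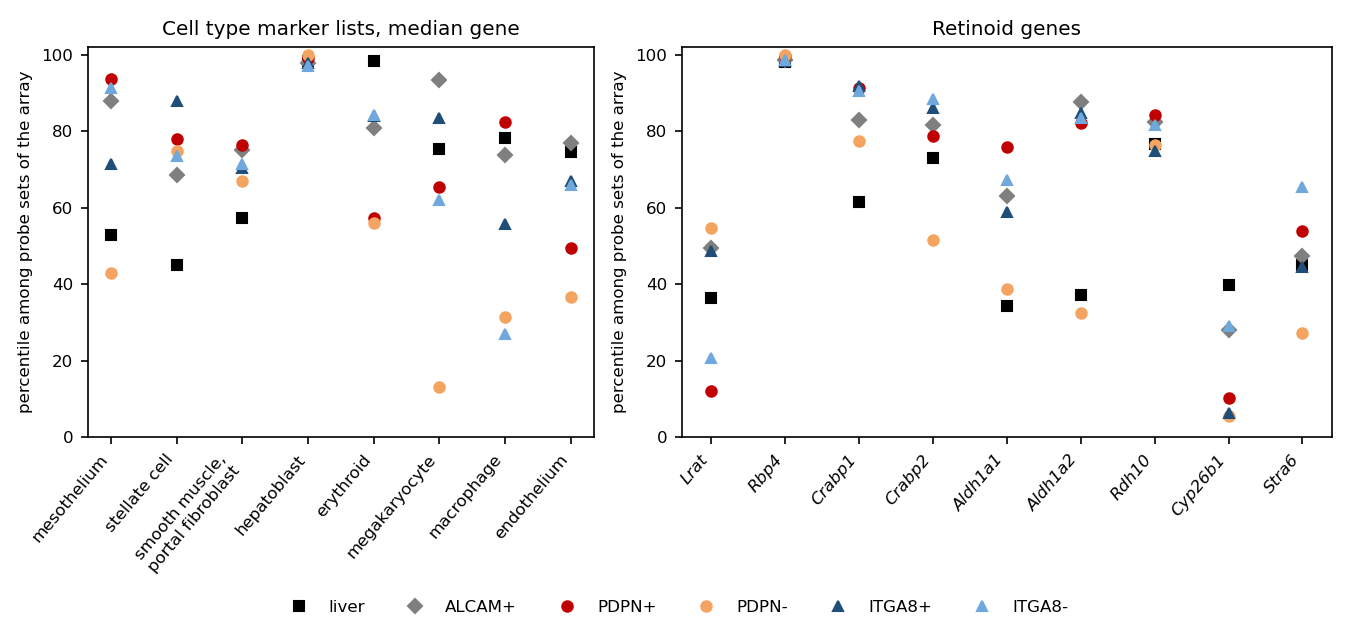
Percentile among the probe sets of the same array for the median gene of 8 cell type marker lists (left) and for the 9 retinoid genes (right), 1 symbol per array. PDPN- (light orange) is the lowest array for the mesothelial list, at 42.9, and for Aldh1a2, at 32.5, and the highest for Lrat, at 54.7.

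Other genes of the pathway were taken from a list of 44 by role, of which 42 were measured. In the PDPN split 27 were above the floor, 5 of them 2-fold higher in PDPN+ and 6 lower (median -0.14, all genes 0.04). Of all genes, 19.9% were higher and 7.89% lower. The count of higher genes is thus near the share over all genes. In the ITGA8 split 29 were above the floor, 1 higher and 1 lower (median -0.01, all genes 0.00), where 5.36% and 5.98% of all genes were. In ALCAM+ minus liver 5 of 20 were higher and 1 lower (median 0.21, all genes 0.00), where 15.5% and 11.3% of all genes were. In ITGA8+ minus PDPN+ 2 of 29 were higher and 7 lower (median -0.14, all genes 0.04), where 16.2% and 14.2% of all genes were.

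Genes of retinol carriage and cell entry went both ways in the PDPN split. Lrp2, the gene of the endocytic receptor megalin, was at 1442 in PDPN+ and 1 in PDPN-, with 209 in ITGA8+ and 698 in ITGA8-; its fold in the PDPN split has no firm size because of the value of 1, and a second probe set gave 850 and 34. Stra6l, which encodes the STRA6-related RBP4 receptor RBPR2, was at 648 in PDPN+ and 1895 in PDPN-, with 218 in ITGA8+ and 220 in ITGA8- cells, so it was highest where Stra6 was lowest. Rbp2, a cellular retinol binding protein gene best known from intestine, was at 709, 2118, 364 and 457 in the same order. The plasma carrier gene Ttr was at 25441, 27501, 23134 and 17341.

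Of the oxidoreductase genes, Rdh11 was at 1480 in PDPN+ and 3467 in PDPN- cells, Rdh5 at 694 and 1453, and Adh1 at 335 and 697, all past 2-fold toward PDPN-. So was Bco1, which encodes the enzyme that cleaves beta-carotene to retinal, at 1166 and 2439. Rdh12 went the other way, at 285 and 29. None of these was past 2-fold in the ITGA8 split. Dhrs3, whose product reduces retinal back to retinol and is induced by retinoic acid, was at 3748 to 4876 in the 4 fractions. In ALCAM+ minus liver it was at 1.43, and Rdh13 at 1.30.

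Of the other synthesis and clearance genes, Aldh1a3 was at 40 to 80 in the 6 arrays, below the floor in all. Cyp26a1, the other CYP26 gene measured, was at 13 in PDPN+ and 19 in PDPN-, with 146 in ITGA8+ and 169 in ITGA8- cells. It was thus near background in both PDPN arrays. Both ITGA8 values were just above the floor but below the medians of their arrays (173 and 200), at the 44.4 and 44.7 percentile. Liver cells had 84 and ALCAM+ cells 134, at the 60.5 and 58.3 percentile, so its rank was highest in those arrays.

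Among receptors, Rarb, itself a retinoic acid target, was at 841 in PDPN+ and 598 in PDPN-, with 1482 in ITGA8+ and 1376 in ITGA8- cells, and Rarg at 308, 142, 553 and 498. Rxrg was at 57, 6, 409 and 270. For all 3 genes PDPN- was the lowest of the fractions, and both ITGA8 arrays were higher than both PDPN arrays. Rarg was past 2-fold in the PDPN split, at 1.04. Rxrg was below the floor in both PDPN arrays and was not called there. A second Rarg probe set was below the floor in all arrays. Rxra and Rxrb were within 2-fold in both splits, and Rara was at 8 to 60, below the floor.

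Retinoic acid responsive genes were 2-fold higher in PDPN+ cells in 2 of 5 above the floor and lower in 0, where 19.9% of all genes were higher and 7.89% lower; 5 genes are too few to read against those shares. Hoxb1 was at 210 in PDPN+ and 23 in PDPN-, with 193 in ITGA8+ and 263 in ITGA8- cells. Rarres1 was at 1216, 413, 121 and 136 in the same order, so it was higher in both PDPN arrays than in both ITGA8 arrays. Rarres2, the chemerin gene, was the 1 listed gene above the floor that was 2-fold higher in ITGA8+ than ITGA8- cells, at 2526 against 1138. Its other probe sets were at 659 against 421 and at 261 against 253. Tgm2 and Nrip1 were within 2-fold in both splits with their strongest probe sets, but not with all others. A weaker Tgm2 probe set was at 259 in ITGA8+ and 1132 in ITGA8- cells. Weaker Nrip1 probe sets were at 961 in PDPN+ against 426 in PDPN-, and at 75 in ITGA8+ against 202 in ITGA8-. Stra8 and Cdx1 were below the floor.

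**Figure D4:**
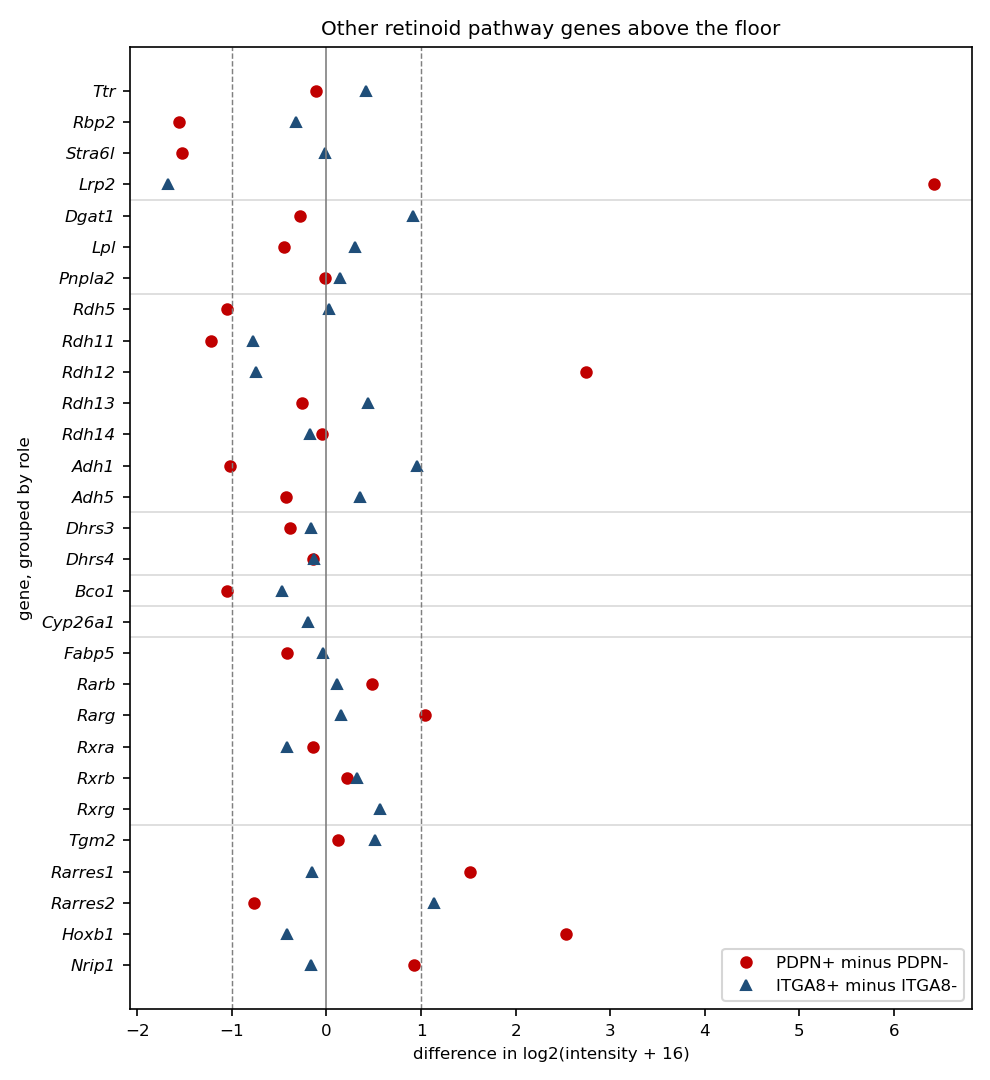
Difference in log2(intensity + 16) for other retinoid pathway genes above the floor, grouped by role, in the PDPN split (red circles) and the ITGA8 split (blue triangles); dashed lines mark 2-fold. Most triangles lie within 2-fold, with Lrp2 at -1.67 and Rarres2 at 1.14 outside, while red points reach from -1.56 (Rbp2) to 6.42 (Lrp2).

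Genes with the most similar pattern over the 4 fraction arrays were ranked by Euclidean distance between log2 profiles centred on their own mean, among 14502 other genes above the floor. Nearest to Lrat were Bmp5, a bone morphogenetic protein gene, at a distance of 0.561, the bile acid receptor gene Nr1h4 (0.586), the Wnt inhibitor gene Dkk1 (0.797), 1110032F04Rik (0.811) and the secreted Wnt antagonist gene Frzb (0.821). Bmp5 was at 165 in PDPN+ and 1327 in PDPN-, with 867 in ITGA8+ and 246 in ITGA8- cells. Nearest to Aldh1a2 were AI504432 (0.469), the neuropilin gene Nrp2 (0.574), Synpo2 of actin filaments (0.583), Igfbp5 (0.631) and Rbfox3 (0.671). Nrp2 was at 2928 in PDPN+ and 80 in PDPN-, with 2441 in ITGA8+ and 3498 in ITGA8- cells. The likeness rests on 4 arrays. For Lrat it also rests on the stronger probe set alone, whose PDPN+ and ITGA8- values were below the floor and so depend on the pseudocount. The same holds for the Aldh1a2 value in PDPN-.

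Over the 4 fractions, the retinoid genes spread widely. Of the 8 above the floor in a fraction, 7 differed by 2-fold or more between their highest and lowest array, where 57.7% of 14503 genes did. The lowest array was PDPN- for 5 of the 8 genes, and for 40.4% of all genes. Lrat was lowest in PDPN+, Rbp4 in ITGA8- and Rdh10 in ITGA8+ cells. The place of Rdh10 rests on 1200 in ITGA8+ against 1285 in PDPN-, and its other probe set was lowest in PDPN-, at 316.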

How the data were processed

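Biotin-labelled probes made from 20 ng of total RNA per sample were hybridised to Affymetrix Mouse Genome 430 2.0 arrays, per the labels' protocols; GEO's type field for the series names sequencing instead. The file deposited by the authors holds 1 intensity per probe set and array, linear and rounded to whole numbers, and RMA and Partek are named in the submitters' processing notes, with versions not given in the sources used here. Nothing says how the 2 sets of arrays came to differ in scale, and control values are empty in the 4 fraction arrays.

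Of 45101 probe sets, 64 controls, 5746 naming no gene and 1280 naming several were left out. Symbols came through Entrez identifiers from the RefSeq table of GRCm38.p6 (92.11% matched). Each gene took its strongest probe set, by the mean of all 6 arrays, was transformed to log2(intensity + 16), entered a comparison if its higher array exceeded 109, and was called at 2-fold. All 9 genes and all their probe sets are described; other pathway genes are named from a fixed list if past 2-fold, as examples or as below the floor, and some genes of the pathway are not reported here. The members, lists and settings were chosen with earlier results of these data known. Python 3.11.15, pandas 2.3.3 and matplotlib 3.10.9 were used.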

Additional observations from a re-analysis of the deposited data

How the results depend on the processing

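No paired analysis was possible because each group holds 1 array, and no array could be left out within a comparison; the comparisons without the PDPN- array stand in the report. Over 540 recomputed differences of the 9 genes in 6 comparisons, 488 kept their sign and their call, 25 lost and 11 gained the call, 16 uncalled ones changed sign, and 0 reversed a call. The counts of genes past 2-fold moved in several settings. Some moved a count by 1 gene: ALCAM+ minus liver from 3 to 2 or 4, and ITGA8+ minus ITGA8- from 2 to 3. Likewise ITGA8+ minus PDPN+ went from 3 to 2 or 4, and ITGA8+ minus PDPN- from 5 to 4 or 6. The other moves were as follows, with the main count first. In ALCAM+ minus liver the count of 3 became 1 at 4-fold and 5 as deposited. In ITGA8+ minus ITGA8- the count of 2 became 1 with a floor 4 times higher and 1 with the mean of all probe sets, in both cases without Lrat. In ITGA8+ minus PDPN+ the count of 3 became 1 with the mean of all probe sets and 1 at 4-fold. In ITGA8+ minus PDPN- the count of 5 became 3 with the higher floor and 3 at 4-fold. In PDPN+ minus ITGA8- the count of 2 became 4 without a floor, 0 at 4-fold and 1 relative to the median of all genes. In PDPN+ minus PDPN- the count of 6 (5 higher, 1 lower) became 4 with the higher floor, without Lrat and Stra6, and 5 at 4-fold, without Crabp1. With the mean of all probe sets it was again 6, but all higher, since Lrat (-1.87) was lost and Rdh10 (1.29) gained. A higher floor and a 4-fold threshold remove genes by construction. Leaving out the floor lets genes in by construction, and values as deposited keep the shift of 0.90. For the other settings the cause was not tested. Each of the 3 Lrat calls was lost with the higher floor and with the mean of all probe sets. Aldh1a1 in ALCAM+ minus liver was at 0.73 with a pseudocount of 64, short of 2-fold. The Rdh10 call in ITGA8+ minus PDPN+ was lost with a pseudocount of 64 (-0.99), quantile normalisation (-0.98), the mean of all probe sets (-0.53) and at 4-fold. Signal near background limits Lrat, Stra6 and Cyp26b1.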
